A study of Mus musculus with 44 samples.

Results

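The Slc38 family encodes the sodium-coupled neutral amino acid transporters, or SNATs. The members described here were taken by gene symbol, namely Slc38a1, Slc38a2, Slc38a3, Slc38a4, Slc38a5, Slc38a6, Slc38a7, Slc38a9, Slc38a10 and Slc38a11, which made up 10 of 32287 gene identifiers and 10 of the 11 Slc38a symbols in the expression files. The remaining symbol, Slc38a8, was not taken, and its highest level in any library was 3.54 TPM, the length-scaled share of a library's transcripts that StringTie gives. No threshold on a value set the choice, but the family was picked with earlier results from these libraries known, so its levels across groups are given as a description.

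RNA-seq was carried out on 44 libraries in 12 groups from mouse embryos in which the embryonic and extraembryonic lineages carried different fluorescent proteins. Each embryo combined an mCherry+ morula (CD1/G4) with GFP+ mESCs (G4, embryonic stem cells of the F1G4 line, described in the methods as male), so that GFP marked the embryonic (em) and mCherry the extraembryonic (ex) cells, and all 12 groups share this aggregation and transfer. At E6.5, epiblast (Epi), distal extraembryonic endoderm (exEndo1) and proximal extraembryonic endoderm (exEndo2) of wild-type embryos were dissected from single embryos, with 4 libraries each. At E9.5, EPCAM+ cells of wild-type embryos were sorted into emMidgut, exMidgut, emHindgut and exHindgut, and mCherry+ yolk sac endoderm (YsEndo) was sorted too, with 4 libraries each and 4 embryos pooled per library. The gate of these E9.5 em libraries is labelled as dual low for GFP and mCherry. At E13.5, EPCAM+ cells of the small intestine (SI) and colon of single embryos were sorted into emSI, exSI, emColon and exColon, with 3 libraries each. The E13.5 ex libraries are labelled Trp53 KO (knockout of the gene for p53) and the em libraries WT, so at this stage origin and Trp53 genotype cannot be told apart. At all 3 stages the em cells are a stem cell line while the ex cells come from the morula, so origin and genetic background also change together. The methods allow either sex for the mCherry+ cells, so sex can differ with origin as well. The Y-linked gene Eif2s3y, read at E13.5 below, was not found in the em libraries although their line is described as male.

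SNATs carry small neutral amino acids such as glutamine, alanine and serine. System A members (Slc38a1, Slc38a2 and Slc38a4) take amino acids up together with sodium, and Slc38a2 is a classical target of the response to amino acid starvation. System N members (Slc38a3 and Slc38a5) carry glutamine together with sodium in exchange for protons and can work in either direction. Slc38a7 and Slc38a9 sit in the lysosome membrane, where Slc38a9 is the arginine sensor that signals to the kinase complex mTORC1. The visceral endoderm of the early embryo and the later yolk sac endoderm are absorptive epithelia that degrade maternal protein in lysosomes and pass nutrients to the embryo.

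Slc38a1, Slc38a2 and Slc38a4 are neighbours on the minus strand of mouse chromosome 15 (build mm10), at chr15:96571418-96642913, chr15:96687392-96699730 and chr15:96994820-97055956. Slc38a4 is one of the non-canonical imprinted genes, whose silencing on the maternal allele rests on a histone mark in place of inherited DNA methylation. Slc38a5 is X-linked (chrX:8271133-8280179). The remaining genes lie apart, with Slc38a3 on chromosome 9, Slc38a6 on 12, Slc38a7 on 8, Slc38a9 on 13, Slc38a10 on 11 and Slc38a11 on 2. Slc38a9 overlaps the annotated gene Gm47827 and Slc38a10 overlaps Gm11769, and as the library kit does not mark strand and StringTie was run without a strand option, reads of such pairs cannot be told apart.

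Promoters of 6 members that were called in at least 1 comparison below are shown because they differ in their density of CG, the dinucleotide that DNA methylation acts on. RefSeq promoter windows (build GRCm38.p6, 250 bases before to 50 bases after the start) were found for 8 of the 10 members, and the sequences below run 5′ to 3′ on the strand of the gene with CG in capitals.
Slc38a2 (chr15:96699679-96699978, minus strand): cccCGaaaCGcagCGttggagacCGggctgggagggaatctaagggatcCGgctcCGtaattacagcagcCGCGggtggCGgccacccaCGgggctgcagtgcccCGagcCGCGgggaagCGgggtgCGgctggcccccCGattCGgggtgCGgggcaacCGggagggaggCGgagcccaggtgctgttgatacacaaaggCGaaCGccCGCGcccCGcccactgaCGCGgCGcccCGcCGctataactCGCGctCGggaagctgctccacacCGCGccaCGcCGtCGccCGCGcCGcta
Slc38a4 (chr15:97055907-97056206, minus strand): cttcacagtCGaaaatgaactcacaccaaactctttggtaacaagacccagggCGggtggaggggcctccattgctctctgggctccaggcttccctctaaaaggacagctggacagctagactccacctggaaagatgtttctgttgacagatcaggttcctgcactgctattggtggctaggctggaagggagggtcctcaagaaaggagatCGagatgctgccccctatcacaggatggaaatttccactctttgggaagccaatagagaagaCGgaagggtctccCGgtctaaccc
Slc38a5 (chrX:8271131-8271430, plus strand): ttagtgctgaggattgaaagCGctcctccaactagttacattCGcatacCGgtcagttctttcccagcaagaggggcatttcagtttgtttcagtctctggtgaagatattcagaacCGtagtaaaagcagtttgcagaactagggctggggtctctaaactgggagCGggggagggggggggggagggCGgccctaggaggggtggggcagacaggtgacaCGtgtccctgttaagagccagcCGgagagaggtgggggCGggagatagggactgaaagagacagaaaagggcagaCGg
Slc38a6 (chr12:73286598-73286897, plus strand): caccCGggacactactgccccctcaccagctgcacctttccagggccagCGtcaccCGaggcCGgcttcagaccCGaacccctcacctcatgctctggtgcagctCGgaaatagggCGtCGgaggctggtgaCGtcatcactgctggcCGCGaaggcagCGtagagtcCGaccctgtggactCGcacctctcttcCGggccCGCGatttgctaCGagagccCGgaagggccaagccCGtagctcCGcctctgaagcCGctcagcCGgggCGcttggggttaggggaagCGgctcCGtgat
Slc38a7 (chr8:95853442-95853741, minus strand): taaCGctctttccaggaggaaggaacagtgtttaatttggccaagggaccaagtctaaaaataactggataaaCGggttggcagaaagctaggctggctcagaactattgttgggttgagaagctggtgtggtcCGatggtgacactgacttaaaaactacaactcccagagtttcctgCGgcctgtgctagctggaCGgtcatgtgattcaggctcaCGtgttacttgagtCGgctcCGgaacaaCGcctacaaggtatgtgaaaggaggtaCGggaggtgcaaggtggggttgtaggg
Slc38a9 (chr13:112660516-112660815, plus strand): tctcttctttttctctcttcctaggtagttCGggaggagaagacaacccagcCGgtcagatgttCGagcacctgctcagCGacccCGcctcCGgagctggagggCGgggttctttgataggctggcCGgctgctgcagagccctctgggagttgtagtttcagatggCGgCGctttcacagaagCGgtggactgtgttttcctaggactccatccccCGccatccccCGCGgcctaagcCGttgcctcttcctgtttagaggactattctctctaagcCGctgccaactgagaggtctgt
The Slc38a2 window held 41 CG, more than 96.5% of all 32851 promoter windows, and the Slc38a6 window held 26. Slc38a9 had 16 CG, Slc38a5 and Slc38a7 had 10 each, and each of the 3 Slc38a4 windows in the table had 5, against a median of 7 over all windows. The E-box CACGTG, which reads the same on both strands, occurred in the windows of Slc38a5 and Slc38a7 and in 7.15% of all windows. The amino acid response motif TGATGNAA, searched on both strands, occurred in 3.97% of all windows and in none of these members' windows. Sites elsewhere in a gene, such as in its introns, lie outside the windows and could not be found by this search.

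Levels are TPM as the authors' files give them. As TPM is scaled by transcript length, levels of different genes can be set side by side. Libraries held 3.53 to 12.04 Gb of aligned bases (median 6.80), estimated from the coverage columns, and 10382 to 13596 genes above 1 TPM. Each comparison was fitted with limma on log2(TPM + 1) over all genes that passed the filter, and a gene was called at a Benjamini-Hochberg adjusted p under 0.05 and an absolute difference above 1 (log2). All differences below are on this log2(TPM + 1) scale and understate the change of genes near or under 1 TPM. The labelled tissues carried their markers, with Pou5f1 and 4 other epiblast genes summing to 2547 to 4238 TPM in Epi against 174 to 525 in exEndo, and 8 visceral endoderm genes to at least 4840 in exEndo and 60850 in YsEndo against at most 5.35 in Epi. Among the epiblast genes, Fgf5 did not set exEndo1 apart from Epi (98.1 ± 51.2 against 121 ± 21.6 TPM, SD, overlapping and not called). Because these are bulk libraries, fewer cells of a type and less RNA per cell cannot be told apart.

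**Figure D1:**
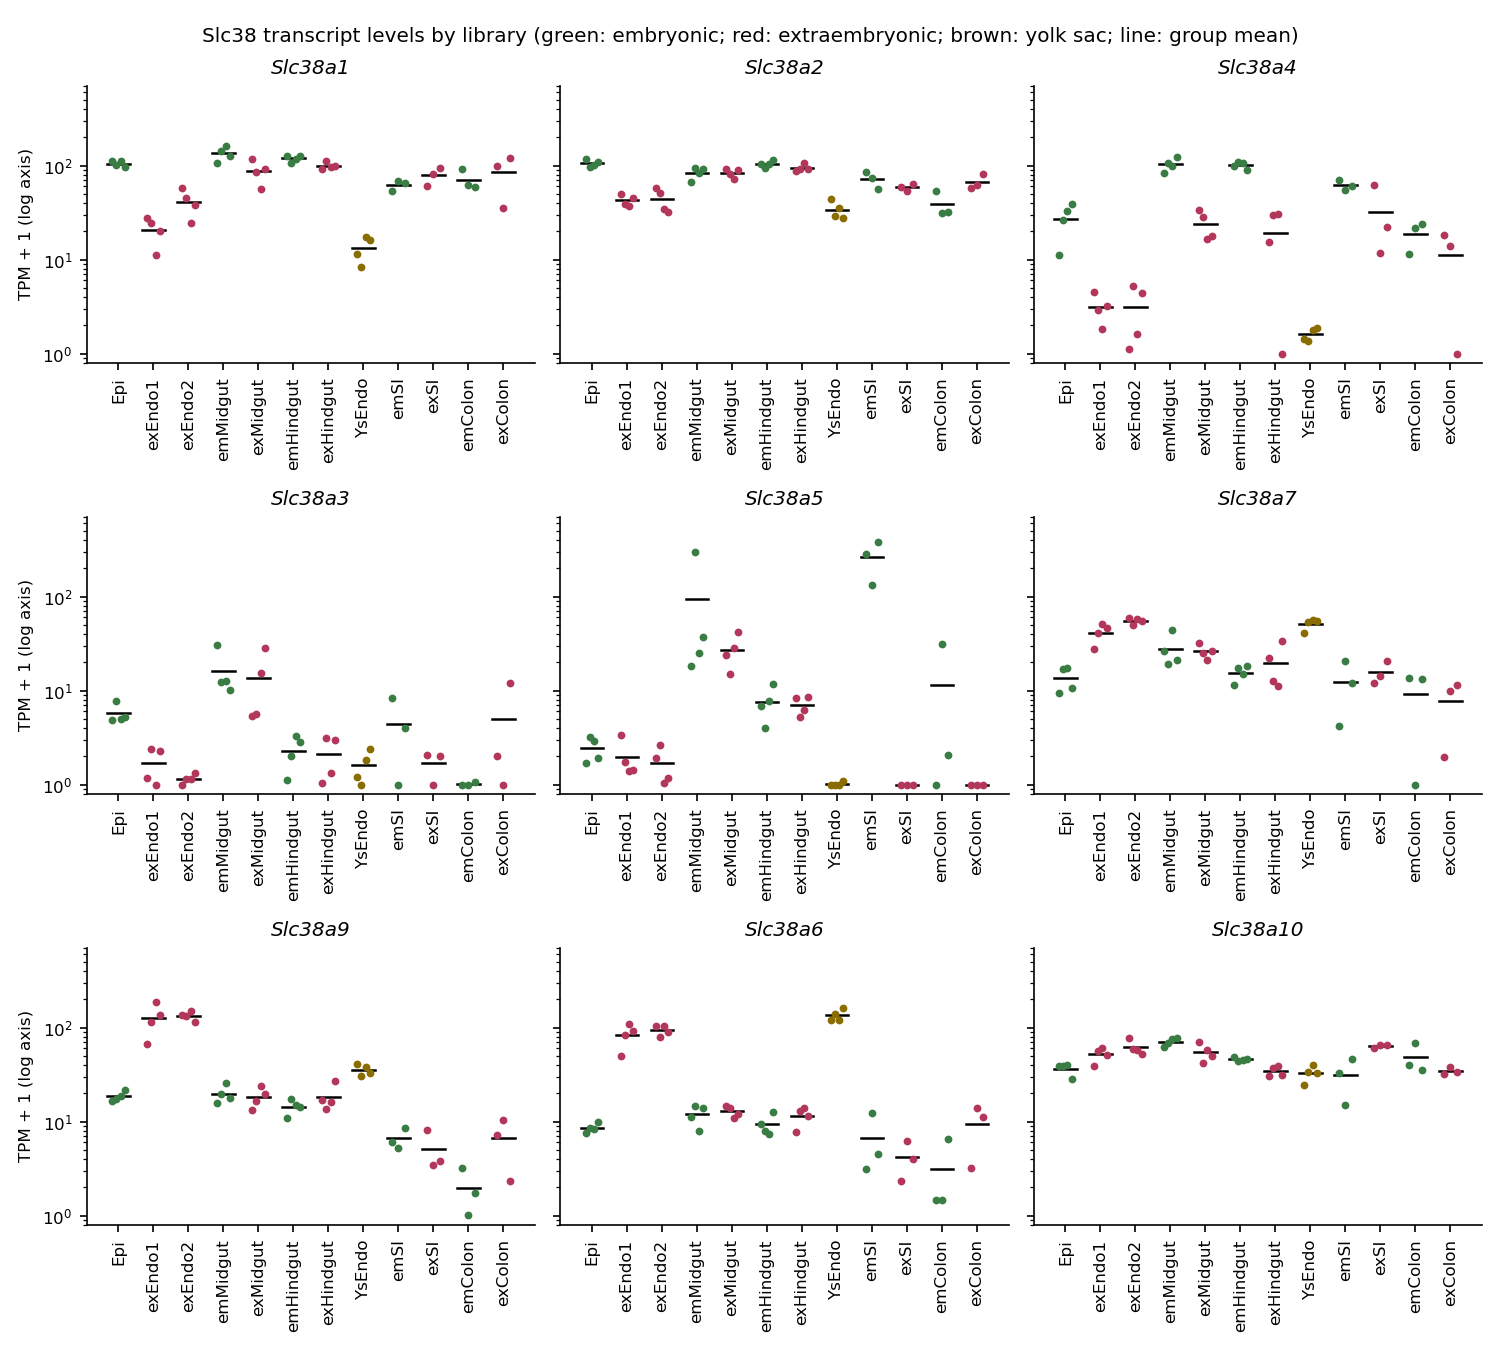
Level of 9 Slc38 genes in every library, as TPM + 1 on a log axis (Slc38a11, at most 0.577 TPM, is left out). Each point is a library, each line a group mean, and the groups run from E6.5 on the left to E13.5 on the right. Slc38a6 and Slc38a9 are high in the E6.5 extraembryonic endoderm, Slc38a4 is highest in the embryonic gut of E9.5, and Slc38a5 is at 0 in all 6 E13.5 ex libraries.

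At E6.5 the family was divided between epiblast and extraembryonic endoderm. The system A genes and Slc38a3 were lower in extraembryonic endoderm, while the lysosomal genes Slc38a7 and Slc38a9, together with Slc38a6, were higher. Of the 8 members tested in exEndo1 against Epi, 3 were called higher and 4 lower, where 33.4% of all 12057 genes tested were called. In exEndo2 against Epi the same 7 members were called in the same directions, where 35.8% of 12046 genes were called. Both comparisons share the Epi libraries, so they are not independent. The median difference over the tested members was −0.41 in exEndo1 and −0.28 in exEndo2, against 0.09 and 0.05 over all genes tested.

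Slc38a1, a broad glutamine importer, was at 109.5, 101, 110.0 and 94.4 TPM in the 4 Epi libraries, at 26.7, 23.6, 10.1 and 19.1 TPM in exEndo1 and at 56.5, 43.8, 23.2 and 37.0 TPM in exEndo2. Every Epi library was above every extraembryonic endoderm library. The difference of exEndo1 from Epi was −2.41 ± 0.24 (SE; limma, adjusted p = 6.59e-06) and that of exEndo2 was −1.41 ± 0.22 (adjusted p = 0.000128). Slc38a2, the starvation-responsive system A carrier, averaged 105 ± 8.47 TPM (SD, n = 4) in Epi, 41.6 ± 5.59 in exEndo1 and 42.7 ± 12.2 in exEndo2. It fell by 1.32 in both comparisons (limma, adjusted p = 5.00e-06 and 5.44e-05), with no overlap between groups.

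Slc38a4 was at 10.2, 25.4, 31.5 and 37.7 TPM in Epi, at 3.52, 1.95, 0.827 and 2.21 TPM in exEndo1 and at 0.124, 4.25, 0.618 and 3.41 TPM in exEndo2. The lowest Epi library was thus above the highest of the 8 extraembryonic endoderm libraries. The exEndo1 mean was 8.12% of the Epi mean, and the differences were −3.05 ± 0.38 for exEndo1 (SE; limma, adjusted p = 3.36e-05) and −3.28 ± 0.50 for exEndo2 (adjusted p = 0.000122). Slc38a3, a system N glutamine transporter, was low throughout, at 3.91 to 6.76 TPM in Epi and at most 1.37 TPM in exEndo, with differences of −1.83 and −2.30 (limma, adjusted p = 0.000228 and 6.00e-07). In exEndo2 against Epi it passed the filter through Epi alone, as exEndo2 reached at most 0.330 TPM. Slc38a5, also of system N, stayed at 0.0357 to 2.41 TPM over the 12 libraries of E6.5 and did not pass the filter.

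Slc38a9, the lysosomal arginine sensor, was at 15.7, 16.5, 17.6 and 20.8 TPM in Epi, at 66.2, 113, 185 and 136 TPM in exEndo1 and at 134, 130.4, 149 and 112 TPM in exEndo2. The groups did not overlap, and the exEndo2 mean was 7.46-fold the Epi mean. The differences from Epi were 2.68 ± 0.26 for exEndo1 (SE; limma, adjusted p = 4.60e-06) and 2.83 ± 0.14 for exEndo2 (adjusted p = 7.60e-09).

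Slc38a6, a family member whose substrates are less settled, was at 6.60, 7.55, 7.43 and 8.85 TPM in Epi, at 48.6, 82.5, 107 and 90.5 TPM in exEndo1 and at 102, 77.8, 102 and 89.6 TPM in exEndo2. This was the largest rise of the family, at 3.22 ± 0.22 in exEndo1 (SE; limma, adjusted p = 3.19e-07) and 3.45 ± 0.15 in exEndo2 (adjusted p = 2.72e-09). Slc38a7 averaged 12.5 ± 4.12 TPM (SD, n = 4) in Epi, 40.3 ± 10.0 in exEndo1 and 54.2 ± 3.69 in exEndo2. It rose by 1.63 and 2.08 (limma, adjusted p = 0.000169 and 3.05e-06). Slc38a10, which passed 1 TPM in all 44 libraries, was more even, and its differences of 0.50 and 0.75 (limma, adjusted p = 0.0274 and 0.0015) were under the fold threshold.

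Between the 2 regions of extraembryonic endoderm no member was called among the 7 tested, where 6.41% of 11414 genes were called (732 genes, and 3272 at an unadjusted p under 0.05). Slc38a1 came closest, with an exEndo2 mean of 40.1 ± 13.9 TPM against 19.9 ± 7.22 TPM (SD, n = 4), overlapping groups and a difference of 0.99 with a 95% interval of 0.32 to 1.67 (limma, adjusted p = 0.0546). Rescaling the libraries by median ratios carried it past the threshold (difference 1.02, adjusted p = 0.0467 by limma).

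Summed over the family, the level changed less than its make-up. The 10 genes summed to 315 ± 9.51 TPM (SD, n = 4) in Epi, 364 ± 79.2 in exEndo1 and 425 ± 43.3 in exEndo2. System A made up 74.7 ± 2.28% of this sum in Epi and 18.8 ± 8.30% in exEndo1, where the lysosomal pair took 44.4 ± 6.98% against 9.57 ± 1.23% in Epi.

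**Figure D2:**
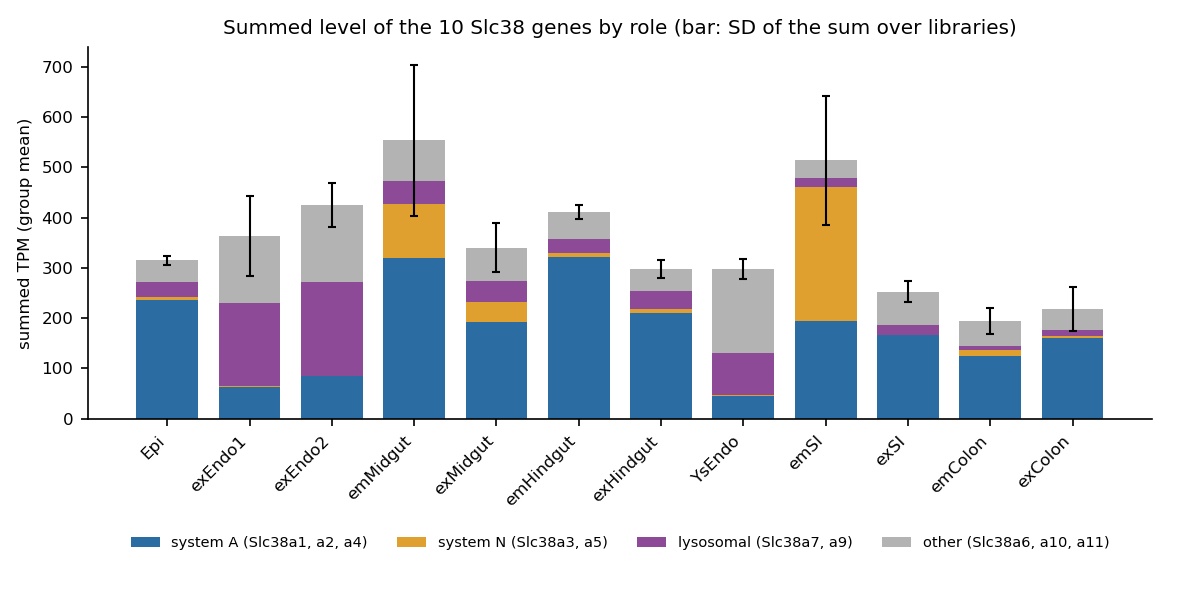
Summed TPM of the 10 Slc38 genes, stacked by role, as the mean of each group, with the SD of the whole sum over 4 libraries (3 at E13.5) as error bars. System A fills most of the bar in epiblast and in every gut group but emSI. Lysosomal and other members fill most of it in exEndo1, exEndo2 and YsEndo. System N is large in emSI (267 ± 127 TPM) and near 0 in exSI (0.699 ± 0.606 TPM).

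Other amino acid genes were also called in both directions at E6.5. Of 27 listed plasma membrane carriers, 17 were tested in exEndo1 against Epi, and 6 were called higher and 5 lower, where 33.4% of all genes were called. Slc7a3, a cationic amino acid transporter, was at 2.13 ± 0.92 TPM in exEndo1 and 257 ± 36.5 TPM in Epi, a difference of −6.40. The opposite pattern was seen for Slc7a8 (118 ± 42.5 against 0.656 ± 0.247 TPM, difference 6.11) and Slc7a9 (92.6 ± 19.2 against 0.41 ± 0.141 TPM, difference 6.03), both light chains of heteromeric exchangers of absorptive epithelia. Slc16a10, an aromatic amino acid carrier, rose by 2.60. In exEndo2 against Epi, 7 of 17 were called higher and 4 lower, where 35.8% of all genes were called. Nothing particular to any of these lists is read from such counts.

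Of 30 genes of lysosomal amino acid sensing and mTORC1, all tested, 4 were called higher and 3 lower in exEndo1, a share under the 33.4% of all genes. The Rag GTPases, which recruit mTORC1 to the lysosome and which Slc38a9 signals to, did not move together. Rragb was at 0.962 ± 0.563 TPM in exEndo1 against 29.7 ± 2.16 TPM in Epi (difference −4.01) and Rragd at 7.24 ± 2.67 against 71.1 ± 11.4 TPM (difference −3.17), while Rragc, at 34.6 ± 10.1 against 9.92 ± 2.40 TPM, rose by 1.69. The lysosomal proton-coupled carrier Slc36a1 rose by 1.71. In exEndo2, 6 were called higher and 2 lower, also a share under the 35.8% of all genes.

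Of the 16 tested genes of the ATF4 amino acid response, 4 were called higher and 4 lower in exEndo1, and 5 and 4 in exEndo2, where 33.4% and 35.8% of all genes were called. The 4 largest in exEndo1 were Mthfd2 (−2.60), Psph (2.02), Chac1 (−1.95) and Ddit4 (−1.80). Among 16 genes of glutamine metabolism, 3 were higher and 4 lower in exEndo1, a share above the 33.4% of all genes. In exEndo2, 2 were higher and 2 lower, a share under the 35.8% of all genes. The glutamine synthetase gene Glul was at 340.0 ± 73.5 TPM in exEndo1 and 598 ± 35.0 TPM in exEndo2 against 86.2 ± 12.2 TPM in Epi (differences 1.95 and 2.79). Gfpt1, which uses glutamine to make hexosamines, rose by 1.96 in exEndo1, and the alanine transaminase gene Gpt2 and the pyrimidine synthesis gene Cad fell by 2.22 and 1.37.

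At E9.5, when descendants of the extraembryonic endoderm lie in the gut tube, the comparison of exGut with emGut asks how far cells of the 2 origins have come to resemble each other. Within the family Slc38a4 stood apart. Of 9 members tested over midgut and hindgut together, 1 was called, namely Slc38a4, where 2.35% of 13473 genes were called. Slc38a4 was also the 1 of 9 called within the midgut, where 2.58% of 12432 genes were called, and the 1 of 9 called within the hindgut, where 3.07% of 12318 genes were called. The 3 comparisons share their libraries. The median difference of the 9 members was −0.31, against −0.03 over all genes tested.

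In the midgut, Slc38a4 was at 82.7, 106, 97.8 and 123 TPM in the em libraries and at 32.6, 27.3, 15.4 and 16.6 TPM in the ex libraries. In the hindgut it was at 98.8, 107, 105 and 88.1 TPM in the em libraries and at 14.3, 28.6, 29.8 and 0 TPM in the ex libraries. Each ex library was below each em library in both regions. The difference was −2.68 ± 0.52 over both regions (SE; 95% interval −3.78 to −1.59; limma, adjusted p = 0.00441), −2.16 ± 0.25 for midgut alone (adjusted p = 0.000125) and −3.21 ± 0.77 for hindgut alone (adjusted p = 0.026).

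The size of the hindgut difference rested on exHindgut replicate 4, in which Slc38a4 was listed at 0. Of 7286 genes above 10 TPM in the other 3 exHindgut libraries, Slc38a4 was the 1 listed at 0 in this library. Without it the difference was −2.06 in the hindgut (limma, adjusted p = 0.000118) and −2.12 over both regions (adjusted p = 5.76e-07), close to the midgut value. With 0.1 TPM added in place of 1, which weighs this 0 more heavily, neither the pooled difference (−3.14, limma adjusted p = 0.0563) nor the hindgut difference (−4.07, adjusted p = 0.115) was called. The hindgut call was also lost without a filter on low values (adjusted p = 0.186, limma), without the trend (adjusted p = 0.14) and without any 1 of the 4 emHindgut libraries (adjusted p from 0.0632 to 0.0689), and the midgut call was lost with all 44 libraries in a single fit (adjusted p = 0.088). The interaction of origin and region, tested directly, was −1.05 with a 95% interval of −3.01 to 0.91 (limma, adjusted p = 0.869). None of the 9 members had a called interaction, where 0.0965% of 13473 genes had one (1052 genes at an unadjusted p under 0.05).

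Measured against its own past, Slc38a4 in the exGut was not at the level of the extraembryonic endoderm. Its mean over the 8 exGut libraries was 20.6 TPM, 9.68-fold the exEndo1 mean of 2.12 TPM and 20.4% of the emGut mean of 101 TPM. These levels come from different stages and were not tested against each other.

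None of the genes beside Slc38a4 was called. Slc38a1 and Slc38a2 start 413 and 356 kb away, and their exGut differences were −0.46 (95% interval −0.74 to −0.18; limma, adjusted p = 0.0707) and −0.06 (−0.30 to 0.17; adjusted p = 0.841). Slc38a1 was at 92.5 ± 18.5 TPM in exGut and 126 ± 18.4 TPM in emGut (SD, n = 8), with overlapping groups. Of the 4 other protein-coding genes within 500 kb of the 3 system A genes, Arid2, Scaf11, Amigo2 and Pced1b, 0 were called, with differences of 0.11, −0.02, 0.08 and 0.24.

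Slc38a4 went against the other non-canonical imprinted genes listed. Sfmbt2, Gab1, Jade1 and Smoc1 were all called higher in exEndo1 than in Epi, with differences of 5.12, 3.25, 1.58 and 2.07, and all 4 were called higher in exEndo2 too. Of all genes tested, 33.4% were called in exEndo1 against Epi and 35.8% in exEndo2 against Epi. In exGut against emGut, Sfmbt2 (9.03 ± 2.27 against 3.10 ± 3.74 TPM), Gab1 (35.3 ± 10.9 against 11.4 ± 2.96 TPM) and Jade1 (59.7 ± 14.7 against 22.8 ± 5.25 TPM) were called higher, by 1.62, 1.53 and 1.35 (limma, adjusted p = 0.0162, 0.000181 and 9.75e-05), while Smoc1 was not. There, 2.35% of all genes tested were called. The Sfmbt2 levels of exGut and emGut overlapped, and in the midgut alone Sfmbt2 was not called (difference 1.07, limma, adjusted p = 0.233). The files give no allele-specific values.

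**Figure D3:**
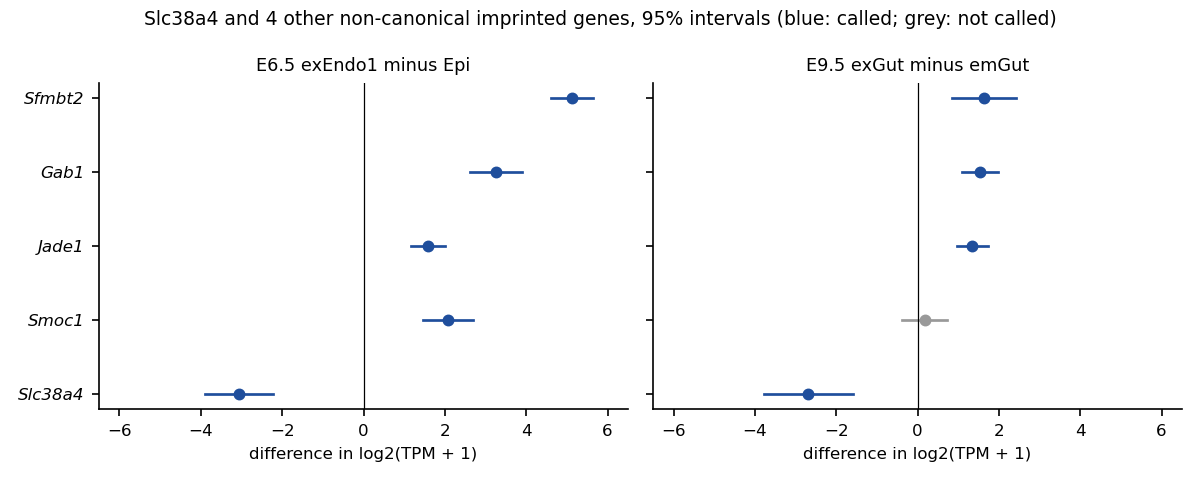
Differences in log2(TPM + 1) with 95% intervals for Slc38a4 and 4 other non-canonical imprinted genes in exEndo1 minus Epi (left) and exGut minus emGut (right), with called genes in blue. Slc38a4 lies to the left of 0 in both (−3.05 and −2.68), and the 7 called values of the other genes lie to the right.

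The remaining members differed between exGut and emGut by at most 0.46 in size, and their intervals bound what these libraries could hide. The lysosomal genes Slc38a7 and Slc38a9 and Slc38a6 had differences of 0.10 (−0.48 to 0.68), 0.10 (−0.32 to 0.52) and 0.21 (−0.22 to 0.65). The limits for Slc38a3 (−1.83 to 1.21) and Slc38a5 (−1.92 to 0.99) were wide. Of the amino acid lists, 1 of 22 carriers was called (Slc43a1, a system L carrier, 10.8 ± 7.97 against 23.3 ± 3.66 TPM, difference −1.23), together with 0 of 30 mTORC1 genes, 0 of 18 ATF4 genes and 0 of 16 glutamine genes. Over all 13473 genes tested, 2.35% were called, and nothing particular to these lists is read from such counts.

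Markers of other cells and of gut region also differed by origin. The 8 visceral endoderm genes summed to 7119 to 17020 TPM in exMidgut against 1465 to 3192 in emMidgut, and to 115 to 689 in exHindgut against 26.7 to 86.8 in emHindgut. The 8 mesenchyme genes, of which 6 or more passed 1 TPM in some library of each of these 4 groups, summed to 24.5 to 60.9 TPM in exMidgut against 104 to 186 in emMidgut, and to 19.0 to 36.7 in exHindgut against 55.5 to 91.2 in emHindgut. Twist1 was at 0 in emMidgut, Meox1 in exMidgut and Cubn in exHindgut. In the midgut, 7 posterior gut genes summed to 164 to 213 TPM in ex and 338 to 436 in em libraries, and Cdx2, a transcription factor of the posterior gut, was called lower (difference −1.19, limma, adjusted p = 0.000241). The 7 neural genes summed to 6.88 to 20.02 TPM in exMidgut and 21.2 to 58.7 in emMidgut, with Pax6 and Sox10 at 0 in both. The sums of 5 extraembryonic ectoderm genes, a list that also holds Cdx2, were apart in the midgut (158 to 225 in ex against 308 to 407 in em), as were those of gut endoderm (1744 to 2518 against 1309 to 1711) and germ cell genes (114 to 164 against 81.3 to 113) in the hindgut. The part of any of these lists in the Slc38a4 difference was not tested. The emMidgut replicates 1 and 3 held the germ cell gene Dppa3 at 224 and 183 TPM and the other 2 at 0, and without those 2 libraries the Slc38a4 difference in the midgut was −2.33 (limma, adjusted p = 0.00404).

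**Figure D4:**
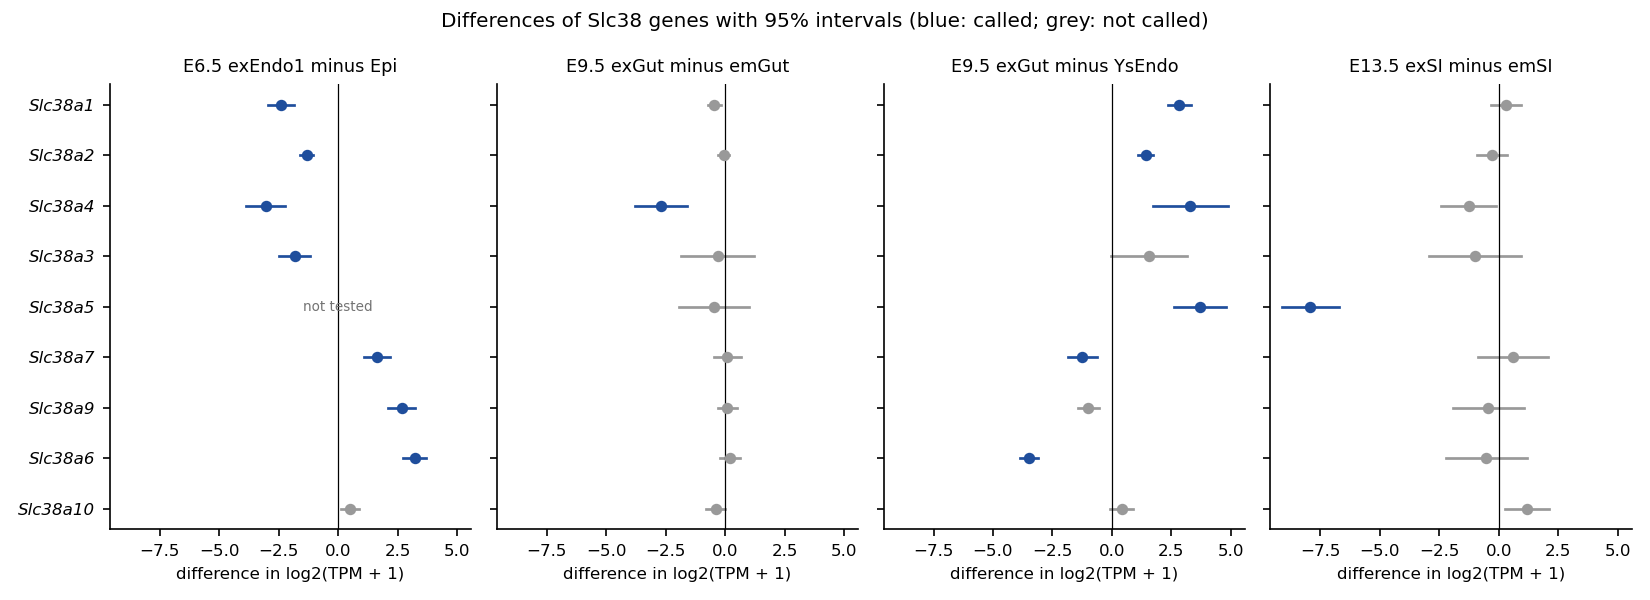
Differences in log2(TPM + 1) with 95% intervals for 9 Slc38 genes in 4 comparisons, each the first group minus the second, with called genes in blue. Opposite signs fill the exEndo1 minus Epi panel, Slc38a4 alone is blue in the exGut minus emGut panel, and Slc38a5 alone in the exSI minus emSI panel, where its value of −7.92 depends on the 1 TPM added.

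Region within the gut set a different pair apart. Both system N genes were lower in the hindgut than in the midgut, and they were the 2 of 9 members called in the em cells, where 13.9% of 12490 genes were called, and the 2 of 9 called in the ex cells, where 11.3% of 12331 genes were called. Slc38a3 was at 29.2, 11.2, 11.6 and 9.17 TPM in emMidgut and at 0.119, 1.00, 2.27 and 1.81 TPM in emHindgut. In the ex cells it was at 4.42, 4.61, 14.3 and 27.3 TPM in the midgut and at 0.0339, 2.15, 0.344 and 2.02 TPM in the hindgut. No hindgut library reached a midgut library of the same origin, and the differences were −2.79 (limma, adjusted p = 0.000307) and −2.49 (adjusted p = 0.00997).

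Slc38a5 was at 17.1, 294, 24.2 and 35.8 TPM in emMidgut and at 5.83, 3.04, 6.83 and 10.7 TPM in emHindgut. In the ex cells it was at 22.6, 13.95, 27.2 and 40.5 TPM in the midgut and at 7.43, 4.20, 5.22 and 7.59 TPM in the hindgut. The groups did not overlap in either origin, and emMidgut replicate 2 lay far above the other 3 of its group. The differences were −2.73 (limma, adjusted p = 0.00642) and −1.87 (adjusted p = 0.00235). Without a filter on low values Slc38a5 was not called in the em cells (limma, adjusted p = 0.072), nor Slc38a3 in the ex cells (adjusted p = 0.0586), and with all 44 libraries in a single fit Slc38a5 was not called in the ex cells. Slc38a10 was lower in the hindgut by 0.62 and 0.66 (limma, adjusted p = 0.00549 and 0.038), under the fold threshold.

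Yolk sac endoderm, the extraembryonic tissue that stays outside the embryo, had high Slc38a6 and Slc38a7 and low system A levels, opposite to the gut. Of 9 members tested in exGut against YsEndo, 4 were called higher and 2 lower, where 42.4% of 12801 genes were called. In emGut against YsEndo, 5 were higher and 3 lower, where 46.6% of 13029 genes were called. Both comparisons share the YsEndo libraries, and in both the median over all genes tested was itself shifted, by 0.59 and 0.64, so differences are read against that shift.

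Slc38a6 was at 120.1, 137, 119 and 161 TPM in YsEndo and at 6.42 to 13.8 TPM in the 16 gut libraries. YsEndo was 12.02-fold the exGut mean, and exGut differed from YsEndo by −3.49 ± 0.18 (SE; limma, adjusted p = 1.36e-09). Slc38a7 was at 39.7, 53.1, 55.9 and 53.3 TPM in YsEndo and fell by 1.25 in exGut (adjusted p = 0.00166, limma). Slc38a9 was at 29.2 to 39.9 TPM in YsEndo, well under the 66.2 to 185 TPM of the exEndo libraries, and its exGut difference of −0.98 (limma, adjusted p = 0.001) fell just short of the fold threshold, while its emGut difference of −1.09 (adjusted p = 0.000315) passed it.

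The system A genes went the other way. Slc38a1 was at 10.5, 7.36, 16.3 and 15.3 TPM in YsEndo against 55.6 to 117 TPM in the 8 exGut libraries, a difference of 2.84 (limma, adjusted p = 7.63e-08). Slc38a4 was at 0.449, 0.367, 0.781 and 0.888 TPM in YsEndo, lower than in every E9.5 gut library but exHindgut replicate 4, and the difference was 3.30 for exGut (limma, adjusted p = 0.00148) and 5.98 for emGut (adjusted p = 6.26e-13). Slc38a2 rose by 1.42 in exGut and 1.49 in emGut, but by only 0.85 and 0.90 after rescaling by median ratios, which ended both calls. Slc38a5 was listed at 0 in 3 YsEndo libraries and at 0.105 TPM in YsEndo replicate 4, and it was called higher in exGut and emGut (differences 3.70 and 4.16, limma, adjusted p = 2.24e-05 and 0.000617). As every YsEndo library was under 1 TPM for Slc38a4 and Slc38a5, both genes passed the filter through gut libraries alone. Slc38a3 was called in emGut only at the edge (1.89, limma, adjusted p = 0.0365) and lost the call without emMidgut replicates 1 and 3 (1.29, adjusted p = 0.0831).

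At E13.5 the targeted gene was checked first. Trp53 RNA was at 151 to 245 TPM in the 6 em libraries and at 33.4 to 167 TPM in the 6 ex libraries labelled Trp53 KO. RNA was thus still listed, and a TPM value does not show whether the coding sequence was edited. This stage also held many more exact zeros. Of the genes above 10 TPM in the other replicates of a group, 10 to 111 were listed at 0 in a given library, against 0 or 1 at E6.5 and E9.5, and Slc38a7 in emColon replicate 2 and Slc38a4 in exColon replicate 3 were among them.

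Slc38a5 gave the largest difference of the family at this stage. It was at 282, 131 and 378 TPM in emSI and listed at 0 in all 3 exSI libraries. In the colon it was at 0, 30.5 and 1.08 TPM in emColon and listed at 0 in all 3 exColon libraries. Of 1326 genes above 100 TPM in every emSI library, Slc38a5 was the 1 listed at 0 in every exSI library, and of 6011 genes above 10 TPM there were 3, namely Ctrb1, Resp18 and Slc38a5. Genes were counted in this direction only, after the zeros were seen. The reverse pattern also occurred, as Rhox5 (977 to 1548 TPM), Trap1a (535 to 637 TPM) and the mCherry transgene were above 100 TPM in every exSI library. These were at 0 in every emSI library. Slc38a5 was the 1 of 9 members called in exSI against emSI, where 0.738% of 11376 genes were called (limma, adjusted p = 1.77e-05). Its log2(TPM + 1) difference was −7.92, a size that depends on the 1 TPM added. With exSI at 0, it passed the filter through emSI alone, so the call is given as a description. No fold is given, since exSI was at 0.

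Over both organs Slc38a5 was again the 1 of 9 called in ex against em, where 0.625% of 12483 genes were called (difference −4.96, limma, adjusted p = 0.0243). Here too it passed the filter through em libraries alone. The call over both organs was lost without any 1 of the 6 small intestine libraries or emColon replicate 2, with adjusted p from 0.0554 to 0.0708, and also without a filter on low values (0.16), without the trend (0.105) and without organ as covariate (0.0976). In emColon against emSI, Slc38a5 was the 1 of 8 called, where 0.472% of 11239 genes were called (difference −5.91, limma, adjusted p = 0.0445), and this call was lost under 4 of 9 other settings and without emColon replicate 1 or 3 or any emSI library. No member of 7 was called in exColon against emColon, where 0.269% of 11167 genes were called (30 genes, and 1106 at an unadjusted p under 0.05), and none of 8 in exColon against exSI, where 0.693% of 11405 genes were called (79 genes, and 1221 unadjusted). The interaction of origin and organ was 5.91 for Slc38a5 (95% interval 2.86 to 8.95; limma, adjusted p = 0.242), with 0 of 9 members called, where 0.016% of 12483 genes were called (2 genes, and 1038 unadjusted).

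Genes of the hormone-producing enteroendocrine cells were examined beside Slc38a5, as a list of 15 chosen after values were seen. Chgb, which encodes a granule protein, was at 8.89, 138 and 184 TPM in emSI and at 0 in every exSI library. Neurog3, the transcription factor that starts the lineage, was at 0, 71.1 and 11.5 TPM in emSI and at 32.6 TPM in emMidgut replicate 2. It was at 0 in the other 3 emMidgut libraries, in all emHindgut and emColon libraries and in all ex gut libraries of both stages. Pyy, a peptide hormone, was at 479, 0 and 72.8 TPM in emSI and at 9.32, 0 and 0 TPM in exSI.

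The 15 genes summed to 290 to 612 TPM in emSI, with Sst and Gip at 0, and to 65.8 to 84.8 TPM in exSI, with 8 at 0. Not all followed that direction, as Rfx6, an endocrine transcription factor also present in gut endoderm, was at 23.8 to 29.9 TPM in emSI and 48.4 to 66.8 TPM in exSI. The emMidgut library with the highest Slc38a5 also had the highest sum of its group, 220 TPM against 85.8 in the lowest. In emHindgut, however, the sums were 162 to 252 TPM, mostly from Isl1 (mean 196 TPM), while Slc38a5 was at 3.04 to 10.7 TPM. Within emSI, Neurog3 was highest (71.1 TPM) in the library with the lowest Slc38a5 (131 TPM). Mesenchyme genes moved with origin as well, at 109 to 505 TPM in emSI and 5.91 to 53.5 TPM in exSI, where 6 and 2 of 8 passed 1 TPM in some library and Col1a1, Col1a2 and Meox1 were at 0 in exSI. The visceral endoderm genes went the other way, at 1693 to 2243 TPM in emSI and 4713 to 7644 in exSI (Fgb at 0), and the 7 neural genes summed to 8.75 to 15.3 TPM in emSI and 0 to 2.96 in exSI, with 5 of them at 0 in exSI. The part of these cells in the Slc38a5 difference was not tested. As Slc38a5 is X-linked, Xist and the Y-linked gene Eif2s3y were also read. Xist was at most 1.37 TPM in all 12 E13.5 libraries, while Eif2s3y was at 0 in the 6 em and at 40.5 to 119 TPM in the 6 ex libraries, although the methods of the study describe the line behind the em cells as male.

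**Figure D5:**
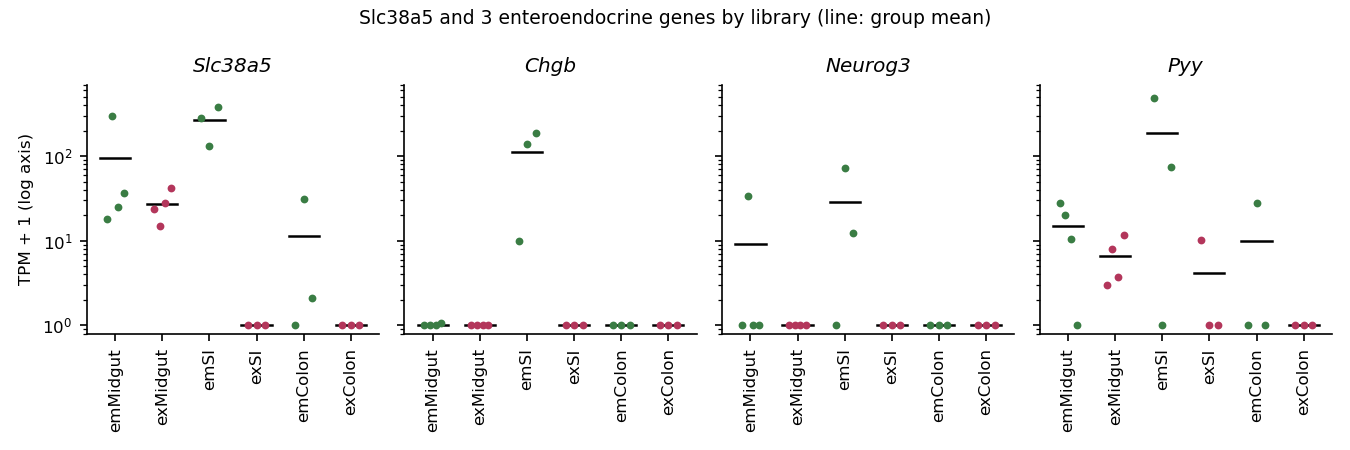
Slc38a5 and 3 enteroendocrine genes in emMidgut, exMidgut, emSI, exSI, emColon and exColon, as TPM + 1 on a log axis with a point for each library and a line at the group mean. In exSI, Slc38a5, Chgb and Neurog3 are at 0 in all 3 libraries and Pyy in 2 of 3, while the highest emSI values are 378, 184, 71.1 and 479 TPM. In emMidgut, replicate 2 stands out for Slc38a5 (294 TPM) and Neurog3 (32.6 TPM). The 3 genes are part of a list of 15 chosen after values were seen. Among those not shown, Rfx6 is higher in exSI than in emSI, and Sst and Gip are at 0 in both.

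The remaining members were less certain at E13.5. Slc38a4 was at 69.5, 54.2 and 59.1 TPM in emSI and at 61.6, 10.9 and 21.4 TPM in exSI, overlapping groups with a difference of −1.27 (95% interval −2.42 to −0.12; limma, adjusted p = 0.431). In the colon it was at 10.5, 20.4 and 22.7 TPM in emColon and at 17.4, 13.1 and 0 TPM in exColon. Slc38a10 was at 63.1 ± 2.59 TPM in exSI and 30.4 ± 15.7 TPM in emSI (SD, n = 3), without overlap but with an adjusted p of 0.328 by limma. Slc38a9 ranged from 0.0154 to 9.38 TPM over the 12 libraries, under its level in every library of the earlier stages.

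Across the 12 groups, the members differed in how widely they ranged. From the lowest to the highest group mean, Slc38a5 spanned 7.92 on the log2(TPM + 1) scale of group means, Slc38a9 6.21, Slc38a4 5.99 and Slc38a6 5.80, while Slc38a2 spanned 1.67 and Slc38a10 1.31. Ordered by mean, most neighbouring groups overlapped. For Slc38a6 the order began with YsEndo, exEndo2 and exEndo1, and YsEndo stood above exEndo2, and exEndo1 above the gut groups, without overlap. For Slc38a9, exEndo2 and exEndo1 came first, then YsEndo, and these 2 steps down did not overlap. For Slc38a4, emMidgut and emHindgut came first and were clear of emSI. For Slc38a1 and Slc38a2 all 11 steps overlapped. Slc38a11 was at most 0.577 TPM, was listed at 0 in 32 of 44 libraries and was never tested.

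The genes whose group means followed Slc38a4, Slc38a5, Slc38a6 and Slc38a9 most closely were found among 14696 genes. The correlations are over 12 group means, which share libraries, stage and tissue, and are given as a description. Among the closest to Slc38a6 were Morf4l2 (r = 0.986) and Atp6v1a (0.983), a subunit of the pump that acidifies lysosomes. Slc38a9 was closest to Desi2 (0.979) and to Ap3d1 (0.978), a subunit of the adaptor that sorts proteins to lysosomes, whose partner Ap3s1 was also near (0.963). Slc38a4 was closest to Sept3 (0.956) and Nkain1 (0.954), and Slc38a5 to Col6a2 (0.961), Zdhhc14 (0.951) and Sh3bgr (0.941), followed by Pyy (0.928).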

How the data were processed

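Poly(A)-selected low-input RNA-seq libraries had been trimmed with cutadapt (version 4.1), aligned to mm10 with STAR (2.7.9a) and quantified with StringTie (2.0.6), per the authors' methods and submitters' processing notes. The deposited tables hold 1 row per gene and library with TPM, FPKM and coverage values that the authors computed with StringTie and did not pool over replicates. Read counts were not used here, so no count model could be run, and depth was estimated from coverage times gene length over genes with a single transcript. TPM of rows that share a gene identifier were summed.

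The 10 members, the gene lists and the tests were chosen with earlier results of these data known, so adjusted p-values are not independent support. All 10 members are named, and of each list up to 4 called genes with the largest differences. Samples were grouped by their labels. Protein-coding, non-Y genes were kept where 4 or more libraries of the comparison (3 or more for E13.5) exceeded 1 TPM, and were tested on log2(TPM + 1) with limma (3.58.1, statmod 1.5.0, R 4.3.3; moderated with a trend, two-sided), each comparison with its own libraries, and E13.5 ex against em with organ as a covariate. Calls needed a Benjamini-Hochberg adjusted p under 0.05 and an absolute difference above 1, and interactions the p alone. Each script was tested on simulated data. Within a group, libraries are separate embryos, or pools of 4 embryos at E9.5. Libraries of different groups may come from the same embryos or pools, which the labels do not settle. This holds also for midgut and hindgut libraries of the same origin, which are joined in exGut and emGut. Tests without a block treat all libraries as independent. Python 3.11.15, pandas 2.3.3, numpy 2.4.6 and matplotlib 3.10.9 were used.

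Alternatives were 0.1 TPM in place of 1, no filter, median-ratio or quantile rescaling, FPKM, no trend, all gene types, all 44 libraries in a single fit, gut region or organ as covariate or not, the replicate number as a block, and leaving out each library. Same-numbered libraries were checked for shared deviations, and only exEndo1 and exEndo2 met the criterion, with every pair's correlation above 0.1 (0.132 to 0.361). Leaving out the emMidgut libraries with Dppa3, and the list of 15 enteroendocrine genes, were chosen after seeing the data.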

Additional observations from a re-analysis of the deposited data

Results flagged for a closer look

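Of 69 sets of 4 libraries (a member in a group, members above 1 TPM), 5 had a library whose gap to the nearest of the others passed the 95% critical value of Dixon's test, and chance alone gives about 1 in 20. Slc38a5 in emMidgut reached 294.1 TPM in replicate 2, against 35.77 TPM in the next library, and the same library held Neurog3 at 32.6 TPM. Slc38a3 in emMidgut reached 29.18 TPM in replicate 1, against 11.56 TPM in the next, and that library is 1 of the 2 with Dppa3. Slc38a3 in Epi reached 6.761 TPM in replicate 2, against 4.284 TPM. Slc38a7 in YsEndo was lowest at 39.68 TPM in replicate 1, against 53.14 TPM in the next. Slc38a10 in Epi was lowest at 27.11 TPM, against 37.52 TPM in the next. Whether these libraries differ in cell content was not tested.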

How the results depend on the processing

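Over 724 repeats of called member values under other settings, 0 changed sign, 679 kept the call and 45 lost it, 24 of them on leaving out a library. Of 2028 repeats of values not called, 26 gained a call and 91 changed sign. Where not stated, the cause was not tested. With 0.1 TPM added, 0 members were called in exGut against emGut, exHindgut against emHindgut and emColon against emSI. Without a filter the count was 0 in exHindgut against emHindgut, E13.5 ex against em and emColon against emSI, and 1 in each hindgut against midgut comparison. Without the trend it was 0 in exHindgut against emHindgut, E13.5 ex against em and emColon against emSI. It was also 0 with all gene types in emColon against emSI and without organ as covariate in E13.5 ex against em. With all 44 libraries in a single fit, it was 0 in exMidgut against emMidgut, 1 in exHindgut against exMidgut, 2 in exColon against emColon, exSI against emSI and emColon against emSI, and 5 in the E13.5 interaction. Median-ratio or quantile rescaling gave 1 in exEndo2 against exEndo1 (Slc38a1). On leaving out each library, the count ran from 0 to 1 in exEndo2 against exEndo1, exHindgut against emHindgut, E13.5 ex against em, emColon against emSI and the E13.5 interaction, where Slc38a5 was called without emColon replicate 2 (7.39, limma, adjusted p = 0.0429). The span of group means became 2.977 for Slc38a3 and 5.5678 for Slc38a9 with FPKM and 2.8131 for Slc38a1 after median-ratio rescaling, and ran from 5.435 to 6.5175 for Slc38a6 and from 1.1189 to 1.6621 for Slc38a10 over libraries left out. Exact zeros at E13.5 and 3 libraries a group limit precision there.

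With the replicate number as a block, no member call changed, with 1 of 9 called in exGut against emGut (Slc38a4, −2.68, limma, adjusted p = 0.00733). In exEndo2 against exEndo1, where numbers pair the libraries, 0 were called, as Slc38a1 (0.99, limma, adjusted p = 0.0207) stayed under the fold threshold. The labels do not say whether libraries of 1 number come from the same embryo or pool. In the other pairs of groups, same-numbered libraries did not meet the criterion, with correlations from −0.145 to 0.159. Every library correlated best with its own number in exColon against emColon, exColon against exSI and exSI against emSI, as a hint from the data.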

Other observations

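Other amino acid genes were called in exGut against YsEndo in shares near, above or under the 42.4% of all genes, and nothing particular to a list is read from them. Of 21 amino acid carriers tested, 8 were called higher in exGut and 7 lower. The lower ones included Slc7a9 (difference −5.65), Slc7a8 (−5.47), Slc43a2 (−3.83) and Slc6a19 (−3.17). Of 30 mTORC1 genes 7 were higher and 8 lower, with Fnip2 at −1.94, Sesn3 at 1.83, Rragb at 1.74 and Slc36a1 at −1.68. Of 16 ATF4 genes 3 were higher and 6 lower, among them the stress gene Ddit4 (5.12) and the serine synthesis genes Psat1 (−3.36), Psph (−3.36) and Phgdh (−2.04). Of 16 glutamine genes, 3 were higher and 2 lower, with Gls2 (2.51) among the higher.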
